A study of Mus musculus with 8 samples.

Results

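The genes of the urea cycle and of amino acid breakdown were followed in cultured mouse liver cells with and without transglutaminase 2 and with and without ethanol. The module was a named list of 39 genes, and a gene entered through the probe sets whose platform symbol was exactly that gene, the brightest by mean intensity standing for it. Enzymes of the methionine cycle and of gluconeogenesis were left out. Of the 39 genes, 37 had such a probe set, among 18193 single gene symbols on the array. A filter on dim signals and missing values left 35 tested members. Argininosuccinate synthase (Ass1) and Mccc2 lacked a usable value on 1 array, and for Sdsl and Amt no probe set carried that symbol alone. The choice of members used no measured difference between groups, although earlier results of these data were known when the list was made.

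The cells were primary hepatocytes from mice of mixed C57BL6/129SVJ background, either wild type (WT) or lacking transglutaminase 2 (TG2KO in the labels, KO here), a protein-crosslinking enzyme encoded by Tgm2. They were kept for 15 h with 0 or 100 mM ethanol, and each of the 4 groups (untreated WT, ethanol WT, untreated KO, ethanol KO) had 2 arrays, A and B. Values given in pairs are array A, then array B. The labels give neither the knockout allele nor the age of the mice. The study title places the question in liver injury and in the action of transglutaminase 2 on the transcription factor Sp1. The labels do not say whether arrays A and B came from separate mice or cultures, so the p-values reflect the spread between these 8 samples and nothing wider, and that spread may be technical. For the B array of each ethanol group the treatment text describes an untreated incubation, against 100 mM in its title. Groups follow the titles here, with counts without these arrays given below.

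The urea cycle turns ammonia and bicarbonate into urea in the hepatocyte, with its first steps in mitochondria and the rest in the cytosol. Its nitrogen comes largely from amino acids: aminotransferases pass amino groups to glutamate and aspartate, glutamate dehydrogenase and the glycine cleavage system release ammonia, and dedicated routes break down the carbon skeletons of tyrosine, tryptophan, serine, glycine, proline and the branched-chain amino acids. The liver carries most of these routes, and several of their enzymes serve as markers of differentiated hepatocytes.

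The targeted gene followed the labels. Tgm2 (probe set 1417500_a_at) had a normalised intensity of 16700 and 16800 in WT cells and 16800 and 16800 in WT with ethanol, then 378 and 368 in KO cells and 704 and 628 in KO with ethanol. Deposited brightness differed before normalisation: both untreated KO arrays and ethanol KO A had trimmed mean intensities of 113.3 to 117.5, and the other 5 arrays 228 to 341.5. The ratio of 3′ to 5′ signal of the pyruvate carboxylase control is a reading of RNA intactness. It was 10.02 and 16.8 in WT cells and 26.7 and 44.55 in WT with ethanol. In KO it was 10.6 and 8.69 untreated and 4.909 and 5.448 with ethanol. The same ratio varied far less for the Actb control (1.149 to 1.622) and the Gapdh control (0.7711 to 0.9766). Both were highest in WT with ethanol.

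Differences are given as log2 of the normalised intensity plus 16, with the model's standard error (SE), and a gene was called at a limma adjusted p under 0.05 across all 19814 probe sets tested. Summed intensity of the 6 measured hepatocyte markers of 8 listed lay between 56300 and 63000 on all 8 arrays, but the sum is carried by a few very bright genes and its members differed. In untreated cells 5 of the 6 were called, with Cyp2e1, Apob and Ttr higher in KO and Apoa1 and Hnf4a lower. Hnf4a, a transcription factor of hepatocyte identity, read 1150 and 1200 in WT cells and 1590 and 1650 in WT with ethanol, then 467 and 430 in KO cells and 820 and 704 in KO with ethanol. Its KO minus WT difference was -1.36 ± 0.10 (adjusted p = 1.6e-05) untreated and -1.08 ± 0.10 (6.1e-05) with ethanol, and ethanol raised it by 0.46 ± 0.10 (0.028) in WT and by 0.74 ± 0.10 (0.0013) in KO. The sum of 8 macrophage markers, most of it Cd14, ran from 4920 to 6960 in WT and from 5920 to 8580 in KO and was higher with ethanol in both genotypes. Cd14 was not called between genotypes, while Cd68 lay at 411 to 570 in WT and 1240 to 1860 in KO, higher by 1.5 ± 0.10 (8.1e-06) untreated and 1.63 ± 0.10 (4.3e-06) with ethanol. In the other direction Marco was lower in KO with differences of -0.98 (0.029) and -1.27 (0.01), and Csf1r (-0.65, 0.042) and Lyz2 (-0.55, 0.044) were lower in untreated KO. Endothelial (379 to 585) and stellate or fibroblast (194 to 508) sums were low. Cdh5 was higher in untreated KO by 0.97 (0.0067) and Pecam1 in KO with ethanol by 0.77 (0.022). Col1a1 lay at 21.3 or below, while Des rose with ethanol in KO by 1.28 ± 0.36 (0.032). All 4 tested stellate or fibroblast markers lay above 0 in that comparison (median 0.76), with only Des called. Acta2 read 273 on ethanol KO A and 22.7 on ethanol KO B. The cholangiocyte sum, from 4 measured of 5 listed markers, was 312 to 460 in WT and 768 to 1120 in KO, and Sox9 made up most of the KO sum while Krt7 and Krt19 stayed at 49.6 or below. The part of these differences in the results below was not tested. In such bulk samples fewer cells of a type and less RNA per cell cannot be told apart.

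KO hepatocytes had less RNA for most of the changed enzymes when untreated. With ethanol many members were called higher in KO and few in WT, but 29 and 27 of the 35 tested lay above 0. Such counts of calls do not compare the genotypes, and the difference between their ethanol effects was tested separately. The untreated genotype difference and the ethanol difference in KO share the 2 untreated KO arrays. In untreated cells 5 members were higher and 18 lower in KO than in WT, against 15.3% and 16.9% of all probe sets tested. Each member is read by the brightest probe set of its gene, while these shares also cover dimmer probe sets. The part of brightness in the counts was not tested. The median difference of the members was -0.36, with a range of -1.29 to 0.81, beside -0.04 for all probe sets tested. With ethanol 5 members were higher and 10 lower in KO (background 14.0% and 15.1%), with a median of -0.08 beside -0.05. Out of 35 tested members, the 5 higher ones in each of these genotype comparisons are near the background. Ethanol in WT gave 3 higher and 1 lower member (background 1.67% and 3.91%), with a median of 0.14 beside 0.01. Ethanol in KO gave 18 higher and 2 lower members (background 11.4% and 10.8%), with a median of 0.36 beside -0.005. The lower counts with ethanol are near or below the background in both genotypes. The ethanol difference itself was larger in KO than in WT for 5 members and smaller for 0 by limma at the adjusted threshold (background 3.57% and 1.78%). Without the B arrays of both ethanol groups, whose treatment text differs from the title, the same 5 comparisons called 27, 17, 5, 22 and 10 members. That fit leaves 1 array in each ethanol group, as does the fit with the B arrays counted as untreated. Each fit below without an array leaves 1 in that group. A lone array is assumed to vary like the groups with 2. The background shares above belong to the main fit, and none is given for the 5 comparisons in any other fit. With the B arrays counted as untreated they called 14, 4, 0, 0 and 0; limma then gave 0, 8 and 3 members at an unadjusted p under 0.05 in the last 3 comparisons.

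**Figure D1:**
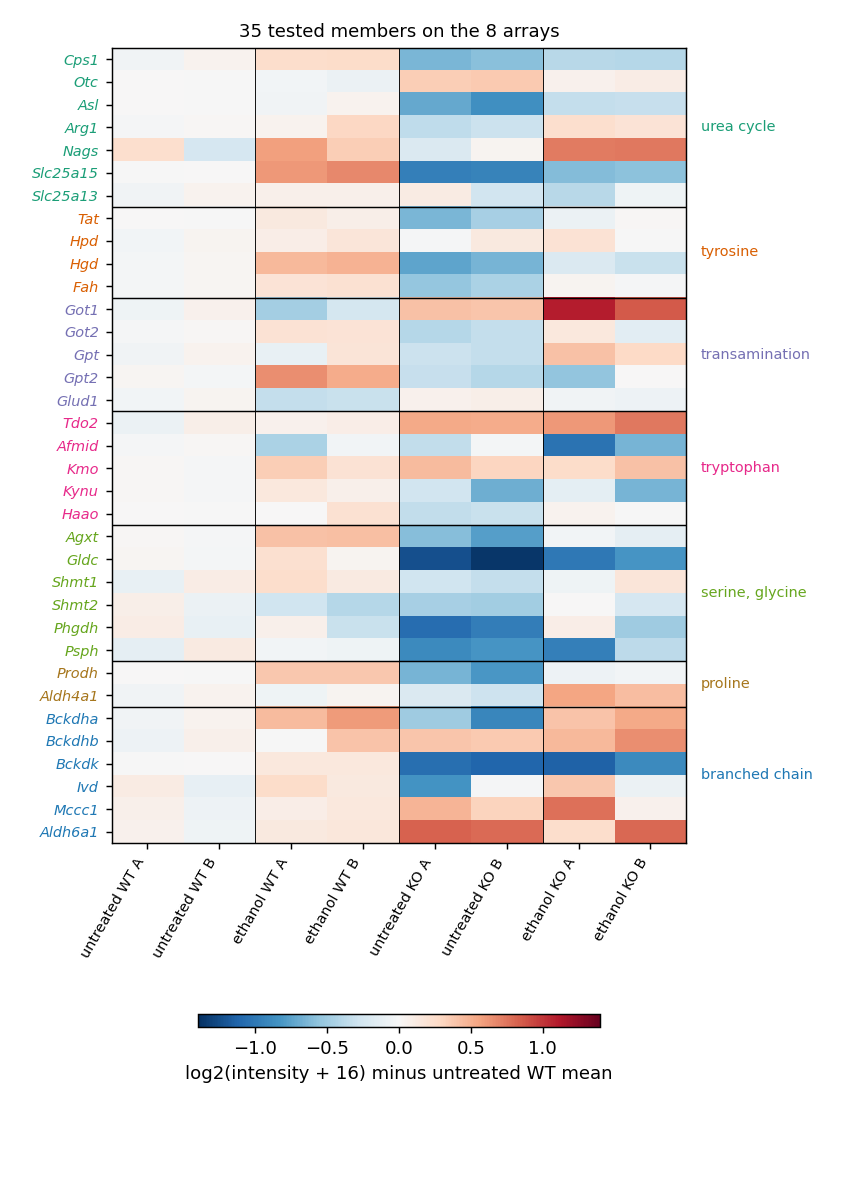
Heat map of the 35 tested members (rows, grouped by route) on the 8 arrays (columns); colour is log2(intensity + 16) minus the mean of the 2 untreated WT arrays. Both untreated KO arrays are blue for most members, and Got1 is deepest red on the ethanol KO arrays.

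In the urea cycle, 4 of the 7 tested members were lower in untreated KO and 1 was higher, against 16.9% and 15.3% of all probe sets. Ethanol in KO raised 5 and lowered 1, against 11.4% and 10.8%. Both counts of 1 are near the background. Cps1 (1455540_at), carbamoyl phosphate synthetase, which carries out the first step in the mitochondrion, read 4520 and 4820 in WT cells and 5540 and 5560 in WT with ethanol, then 3000 and 3100 in KO cells and 3550 and 3540 in KO with ethanol. All 4 KO arrays lay below all 4 WT arrays. KO minus WT was -0.61 ± 0.06 untreated (adjusted p = 0.00012) and -0.65 ± 0.06 with ethanol (9.6e-05), and ethanol in KO gave 0.22 ± 0.06 (0.038). Asl (1448350_at), argininosuccinate lyase, which splits off fumarate to leave arginine, read 2770 and 2750 in WT cells and 2670 and 2860 in WT with ethanol, then 1670 and 1520 in KO cells and 2180 and 2200 in KO with ethanol. KO minus WT was -0.79 ± 0.07 (7.3e-05) untreated and -0.33 ± 0.07 (0.0088) with ethanol. The KO arrays thus lay below every WT array with ethanol too, but by less. Arg1 (1419549_at), the arginase that releases urea, read 2050 and 2110 in WT cells and 2150 and 2540 in WT with ethanol, then 1620 and 1680 in KO cells and 2450 and 2370 in KO with ethanol. It was lower in untreated KO with a difference of -0.33 ± 0.09 (0.017) and rose with ethanol in KO by 0.54 ± 0.09 (0.003), to values within the range of the ethanol WT arrays.

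The mitochondrial ornithine carrier Slc25a15 (1420967_at), which brings ornithine back to the start of the cycle, read 890 and 901 in WT cells and 1370 and 1440 in WT with ethanol, then 454 and 460 in KO cells and 582 and 596 in KO with ethanol. KO minus WT was -0.95 ± 0.08 (5e-05) untreated and -1.23 ± 0.08 (1e-05) with ethanol, and ethanol raised it by 0.64 ± 0.08 (0.0028) in WT and by 0.36 ± 0.08 (0.016) in KO. A second and much dimmer Slc25a15 probe set (1420966_at, mean 95.4) was called in no comparison. Nags (1425230_at), which makes the N-acetylglutamate that activates Cps1, read 303 and 213 in WT cells and 387 and 327 in WT with ethanol, then 219 and 262 in KO cells and 431 and 436 in KO with ethanol. Its WT and untreated KO arrays overlapped, and it rose with ethanol in KO by 0.82 ± 0.17 (0.01). Otc, which joins carbamoyl phosphate to ornithine, went the other way, at 2590 to 2750 in WT, 3490 and 3540 in KO cells and 2860 and 2940 in KO with ethanol. It was higher in untreated KO by 0.36 ± 0.06 (0.0023) and fell with ethanol in KO, a difference of -0.27 ± 0.06 (0.015); a second Otc probe set (1436615_a_at) gave 0.59 (0.016) and -0.47 (0.056). Slc25a13, the aspartate and glutamate carrier, was called in no comparison and ranged from 224 to 324. Without one array at a time, the Arg1 call in untreated cells was lost for each of the 4 arrays compared (adjusted p up to 0.11), the Asl call with ethanol without ethanol WT B (0.078), and the Nags call without untreated KO A (0.088). The ethanol calls in KO of Slc25a15 and Otc were lost without either untreated KO array (up to 0.094 and 0.1), and that of Cps1 without any array other than the ethanol KO arrays (up to 0.2); under trimmed-mean scaling the Cps1 value was 0.10 (0.42).

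Ass1, which joins citrulline to aspartate, could be read only through a dim probe set (1459937_at) with 24.3 and 17.7 in untreated WT, 2.27 on ethanol WT A, 30.4 and 16.6 in KO cells and 50.6 and 33.7 in KO with ethanol. The value on ethanol WT B was missing. A brighter probe set annotated to both Gm5424 and Ass1 was not used, and no difference is given for Ass1.

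Of the 4 tyrosine enzymes, 3 were lower in untreated KO and rose with ethanol in KO. Over all probe sets tested 16.9% were lower in untreated KO and 11.4% were higher with ethanol in KO. Tat (1451557_at), tyrosine aminotransferase, the first and regulated step, read 712 and 710 in WT cells and 786 and 751 in WT with ethanol, then 452 and 512 in KO cells and 672 and 719 in KO with ethanol. Untreated KO differed from WT by a log2 value of -0.55 ± 0.10 (adjusted p = 0.0024), and ethanol in KO raised it by 0.52 ± 0.10 (0.0062); KO minus WT with ethanol was -0.14 ± 0.10 (0.32). Hgd (1452986_at), homogentisate dioxygenase, which opens the ring, read 1940 and 2030 in WT cells and 2730 and 2790 in WT with ethanol, then 1180 and 1260 in KO cells and 1720 and 1600 in KO with ethanol. Each KO array lay below each WT array, with differences of -0.69 ± 0.08 (0.00016) untreated and -0.73 ± 0.08 (0.00013) with ethanol. Ethanol raised Hgd by 0.47 ± 0.08 (0.0073) in WT and by 0.43 ± 0.08 (0.0042) in KO. Fah (1417220_at), the last enzyme of the route, read 2790 and 2920 in WT cells and 3250 and 3320 in WT with ethanol, then 1950 and 2100 in KO cells and 2940 and 2820 in KO with ethanol. It was lower in untreated KO with a difference of -0.49 ± 0.07 (0.00074) and rose with ethanol in KO by 0.51 ± 0.07 (0.0017). Hpd, the dioxygenase between Tat and Hgd, lay between 7680 and 9100 on all arrays and was called in no comparison. The ethanol calls in KO of Tat (0.063) and Hgd (0.05) were lost without untreated KO A, and that of Hgd in WT without any of the 4 WT arrays (up to 0.086).

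Among the aminotransferases and glutamate dehydrogenase the cytosolic aspartate enzyme had the largest excess in KO. Got1 (1450970_at), which forms part of the malate-aspartate shuttle, read 1320 and 1440 in WT cells and 984 and 1160 in WT with ethanol, then 1840 and 1810 in KO cells and 2980 and 2520 in KO with ethanol. No KO array overlapped a WT array, and the gap widened with ethanol: KO minus WT was 0.40 ± 0.11 untreated (adjusted p = 0.018) and 1.34 ± 0.11 with ethanol (2.6e-05). Ethanol raised it in KO by 0.58 ± 0.11 (0.0056), while the WT difference was -0.36 ± 0.11 (0.089). Got2 (1417715_a_at), the mitochondrial counterpart, read 5400 and 5560 in WT cells and 6320 and 6270 in WT with ethanol, then 4150 and 4330 in KO cells and 6060 and 4940 in KO with ethanol. KO minus WT was -0.37 ± 0.09 (0.012) untreated, and ethanol in KO gave 0.37 ± 0.09 (0.018); under trimmed-mean scaling the values were -0.20 (0.22) and 0.20 (0.25). A second Got2 probe set (1417716_at) read 1490 and 1650 in WT cells and 813 and 922 in WT with ethanol, then 1240 and 1350 in KO cells and 2400 and 1990 in KO with ethanol. It fell with ethanol in WT, a difference of -0.84 ± 0.11 (0.0029), and rose in KO by 0.75 ± 0.11 (0.0021), with an interaction of 1.59 ± 0.16 (0.0018). KO was higher with ethanol by 1.32 ± 0.11 (3.8e-05), against -0.20 (0.13) for KO minus WT with ethanol by the brighter probe set. The direction of the WT ethanol effect and of KO minus WT with ethanol thus depends on the probe set.

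Gpt (1426502_s_at), the main alanine aminotransferase of liver and the enzyme measured as ALT in serum, read 1550 and 1670 in WT cells and 1500 and 1820 in WT with ethanol, then 1300 and 1270 in KO cells and 2150 and 1960 in KO with ethanol. By this probe set KO was lower with a difference of -0.32 ± 0.10 untreated (adjusted p = 0.036) and higher by 0.31 ± 0.10 with ethanol (0.046), with a rise in KO of 0.67 ± 0.10 (0.0023). A much dimmer Gpt probe set (1453216_at, mean 91.0) was called in no comparison, and its KO minus WT value with ethanol had the other sign, -0.45 (0.39). Gpt2 (1438385_s_at), the mitochondrial alanine aminotransferase, read 1770 and 1700 in WT cells and 2740 and 2500 in WT with ethanol, then 1380 and 1310 in KO cells and 1180 and 1740 in KO with ethanol, and KO minus WT with ethanol was -0.86 ± 0.15 (0.0024). Of the other Gpt2 probe sets, 1455007_s_at and 1434542_at were lower too (-0.57, 0.0071, and -0.64, 0.011). In contrast 1439029_at was higher in KO with ethanol by 0.54 ± 0.15 (0.025), so the direction for Gpt2 depends on the probe set. Ethanol raised 1455007_s_at in WT by 0.59 (0.024) and 1439029_at in KO by 0.75 (0.0082). Probe set 1434542_at was lower in untreated KO (-0.57, 0.017). The brightest Gpt2 probe set was not called in these 3 comparisons. Glud1, which releases ammonia from glutamate, ranged from 5070 to 6760. It fell with ethanol in WT, a difference of -0.32 ± 0.06 (0.016), and was higher in KO with ethanol by 0.26 ± 0.06 (0.011). A second Glud1 probe set (1448253_at), nearly as bright, was called lower with ethanol in WT too (-0.27, 0.037) but gave 0.06 ± 0.06 (0.5) for KO minus WT with ethanol. Without one array at a time, the calls in untreated cells of Got2 (up to 0.09) and Gpt (up to 0.19) were lost for each of the 4 arrays compared, and that of Got1 without untreated WT A or either untreated KO array (up to 0.12). The ethanol call in KO was lost for Got1 without untreated KO B (0.05) and for Got2 without either untreated KO array (up to 0.13). Gpt with ethanol was not called without any array other than ethanol WT B and ethanol KO B (up to 0.31). For Glud1 the call with ethanol was lost without either ethanol WT array (up to 0.073), and the WT ethanol call without any WT or untreated KO array (up to 0.15).

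**Figure D2:**
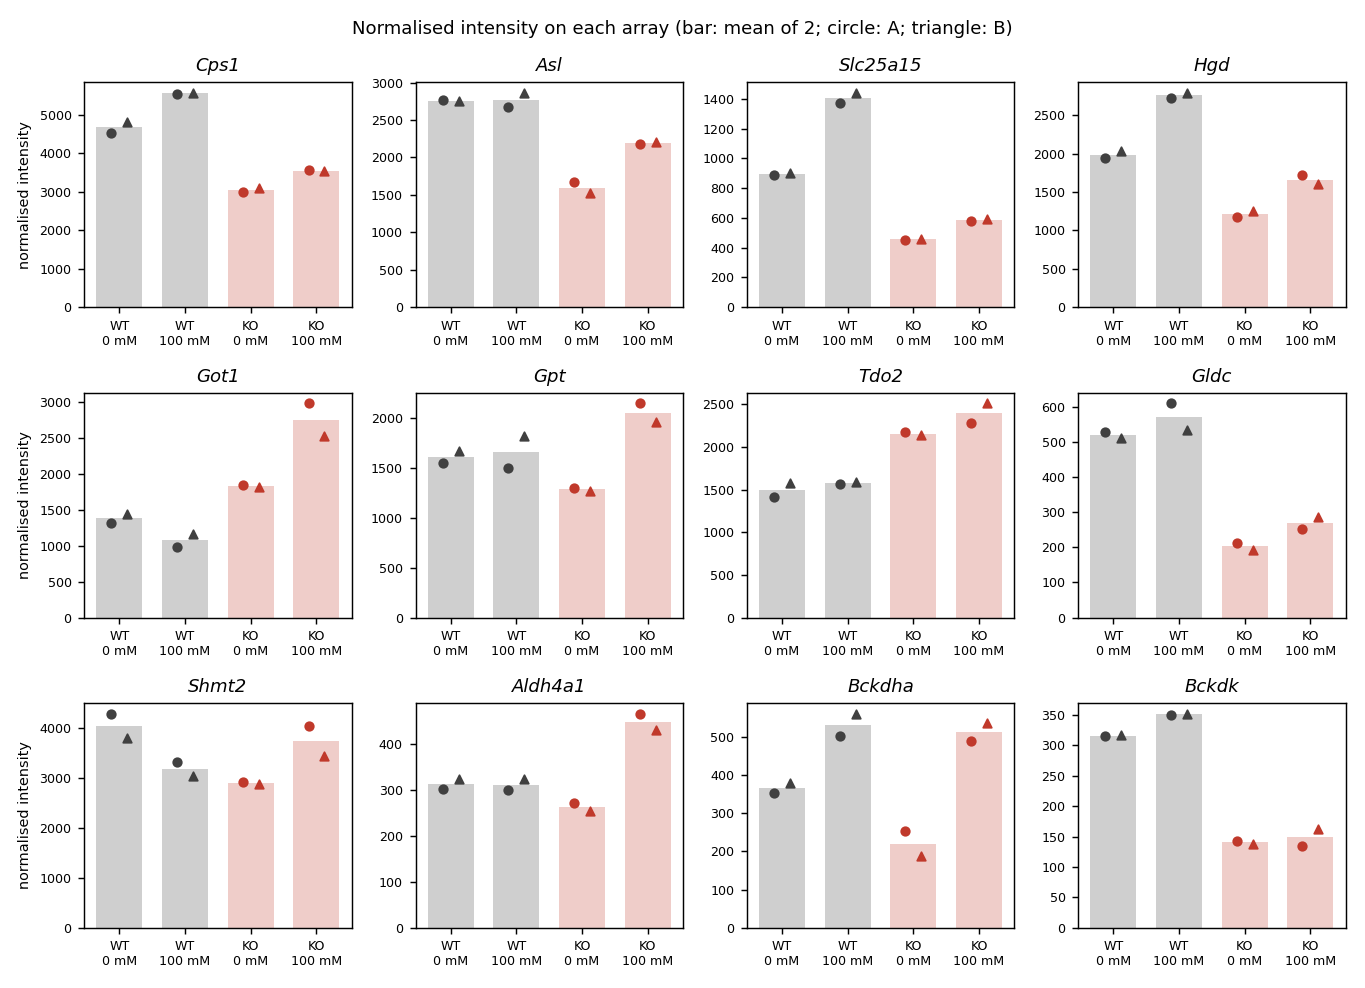
Normalised intensity (linear axis from 0) of 12 members on each array; bars are the mean of 2 arrays, circles array A and triangles array B, grey WT and red KO. Cps1, Slc25a15, Hgd, Gldc and Bckdk are lower on every KO array than on every WT array, and Got1 and Tdo2 are higher.

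The tryptophan route was mixed. Tdo2 (1419093_at), the liver dioxygenase that opens the kynurenine route, read 1410 and 1580 in WT cells and 1560 and 1590 in WT with ethanol, then 2170 and 2140 in KO cells and 2280 and 2510 in KO with ethanol. All KO arrays lay above all WT arrays, by 0.53 ± 0.08 untreated (adjusted p = 0.0012) and 0.60 ± 0.08 with ethanol (0.00071), and ethanol gave no call in either genotype. A dimmer Tdo2 probe set (1449337_at) gave 0.26 (0.13) and -0.11 (0.54) for the same comparisons and was not called. Afmid (1452944_at), the formamidase of the following step, read 231 and 238 in WT cells and 168 and 228 in WT with ethanol, then 182 and 230 in KO cells and 106 and 144 in KO with ethanol. It fell with ethanol in KO, a difference of -0.66 ± 0.20 (0.044), which was lost without any of the untreated arrays or ethanol KO A (up to 0.25). A second Afmid probe set (1428885_at) had the other sign there, 0.27 (0.36), and was called in no comparison. Kmo, the kynurenine hydroxylase, at 379 to 492 in WT and 459 to 527 in KO, was higher in untreated KO by 0.37 ± 0.11 (0.033). Haao, the dioxygenase further down the route, at 1160 to 1350 in WT and 912 to 1210 in KO, was lower in untreated KO with a difference of -0.33 ± 0.09 (0.018) and rose with ethanol in KO by 0.35 ± 0.09 (0.021). Kynu (81.2 to 157) was called in no comparison. The untreated calls of Kmo (up to 0.2) and Haao (up to 0.1) were lost without each of the 4 arrays compared, and the ethanol call of Haao in KO without either untreated KO array or ethanol KO A (up to 0.12).

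Without ethanol, serine and glycine metabolism held the largest deficit in KO of the module. With ethanol Slc25a15 (-1.23) and Bckdk (-1.16) lay lower than Gldc (-1.04). In untreated KO 5 of its 6 tested members were lower, against 16.9% of all probe sets tested. Gldc (1416049_at), the decarboxylase of the mitochondrial glycine cleavage system, read 528 and 511 in WT cells and 611 and 534 in WT with ethanol, then 213 and 193 in KO cells and 252 and 287 in KO with ethanol. KO minus WT was -1.29 ± 0.12 untreated (adjusted p = 8.1e-05), a 2.44-fold lower level, and -1.04 ± 0.12 with ethanol (0.00029). Agxt (1418833_at), the peroxisomal aminotransferase that removes glyoxylate, read 781 and 759 in WT cells and 1030 and 1040 in WT with ethanol, then 502 and 444 in KO cells and 749 and 706 in KO with ethanol. KO was lower with a difference of -0.69 ± 0.09 (0.00057) untreated and -0.50 ± 0.09 (0.0036) with ethanol, and ethanol raised it by 0.42 ± 0.09 (0.033) in WT and by 0.61 ± 0.09 (0.0026) in KO. The ethanol KO arrays thus lay just below the untreated WT arrays.

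Phgdh (1426658_x_at), the first enzyme of serine synthesis, read 589 and 511 in WT cells and 578 and 438 in WT with ethanol, then 254 and 273 in KO cells and 584 and 384 in KO with ethanol. It was lower in untreated KO with a difference of -1.02 ± 0.20 (adjusted p = 0.0036) and rose with ethanol in KO by 0.81 ± 0.20 (0.017), with the ethanol KO arrays far apart. This probe set gave -0.08 (0.79) for KO minus WT with ethanol, but the other 3 Phgdh probe sets were called lower there: -1.09 (0.00031) for 1454714_x_at, -0.75 (0.0081) for 1437621_x_at and -0.65 (0.049) for 1456584_x_at. For ethanol in KO those gave 0.12 (0.55), 0.50 (0.058) and 0.74 (0.037). Psph (1415673_at), the phosphatase that completes serine synthesis, read 610 and 725 in WT cells and 645 and 639 in WT with ethanol, then 350 and 368 in KO cells and 334 and 511 in KO with ethanol, and KO minus WT was -0.86 ± 0.18 untreated (0.0047) and -0.62 ± 0.18 with ethanol (0.026). Shmt2 (1455084_x_at), which converts serine and glycine in mitochondria, read 4280 and 3790 in WT cells and 3320 and 3040 in WT with ethanol, then 2910 and 2870 in KO cells and 4030 and 3430 in KO with ethanol. KO minus WT was -0.48 ± 0.10 (0.0044) untreated, and ethanol in KO gave 0.36 ± 0.10 (0.025), while in WT the difference was -0.34 ± 0.10 (0.074). A second Shmt2 probe set (1426423_at) was called in each of these comparisons, with -0.34 ± 0.07 (0.0048) untreated, 0.42 ± 0.07 (0.0034) for ethanol in KO and -0.64 ± 0.07 (0.0012) for ethanol in WT. It was also higher in KO with ethanol, by 0.72 ± 0.07 (8e-05) against 0.23 ± 0.10 (0.11) for the brightest one, with an interaction of 1.06 ± 0.10 (0.0015). A dim Shmt2 probe set (1434204_x_at, mean 113) instead rose with ethanol in WT by 1.03 (0.034). The cytosolic counterpart Shmt1 (379 to 576) was called in no comparison, while dimmer Shmt1 probe sets were called in opposite directions for KO minus WT with ethanol: 0.64 (0.025) for 1422198_a_at and -0.69 (0.019) for 1425178_s_at. The Agxt call in WT was lost without any WT or untreated KO array (up to 0.19). The Psph call with ethanol was lost without either ethanol WT array or ethanol KO A (up to 0.11), and its value without ethanol KO A was -0.32. The ethanol calls in KO of Phgdh (up to 0.11) and Shmt2 (up to 0.13) were lost without either untreated KO array or ethanol KO A, and without ethanol KO A the values were 0.52 and 0.24.

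Both proline enzymes rose with ethanol in KO, as did 11.4% of all probe sets tested. Prodh (1417629_at), proline dehydrogenase, read 508 and 503 in WT cells and 663 and 660 in WT with ethanol, then 315 and 281 in KO cells and 479 and 490 in KO with ethanol. KO was lower with a difference of -0.74 ± 0.10 (adjusted p = 0.0006) untreated and -0.44 ± 0.10 (0.011) with ethanol, and ethanol in KO gave 0.68 ± 0.10 (0.0023). Aldh4a1 (1452375_at), the next dehydrogenase of the route, read 302 and 324 in WT cells and 300 and 322 in WT with ethanol, then 270 and 253 in KO cells and 465 and 429 in KO with ethanol. The ethanol KO arrays stood above the other 6, with a rise in KO of 0.74 ± 0.12 (0.0028) and KO higher with ethanol by 0.50 ± 0.12 (0.011). The calls with ethanol were lost for Prodh without either ethanol WT array (up to 0.066) and for Aldh4a1 without ethanol WT A (0.08).

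Of the 6 tested branched-chain members 1 was higher and 2 were lower in untreated KO, against 15.3% and 16.9% of all probe sets. With 6 members neither count stands clearly apart from that background. Bckdha (1416647_at), a subunit of the dehydrogenase that commits branched-chain keto acids to breakdown, read 354 and 379 in WT cells and 503 and 561 in WT with ethanol, then 254 and 187 in KO cells and 488 and 536 in KO with ethanol. It was lower in untreated KO with a difference of -0.71 ± 0.15 (adjusted p = 0.0056) and had the largest called ethanol rise of the module in KO, 1.17 ± 0.15 (0.0011), which is 2.25-fold; KO minus WT with ethanol was -0.05 ± 0.15 (0.83). Bckdk (1460644_at), the kinase that switches this dehydrogenase off, read 315 and 316 in WT cells and 350 and 352 in WT with ethanol, then 143 and 138 in KO cells and 135 and 163 in KO with ethanol. It was lower in KO under both conditions, with differences of -1.09 ± 0.14 (0.00039) and -1.16 ± 0.14 (0.00031), and ethanol gave no call in either genotype. Aldh6a1 (1448104_at), the methylmalonate semialdehyde dehydrogenase of valine breakdown, read 1450 and 1330 in WT cells and 1530 and 1550 in WT with ethanol, then 2480 and 2420 in KO cells and 1650 and 2440 in KO with ethanol. It was higher in untreated KO by 0.81 ± 0.15 (0.0027), and the ethanol KO arrays were far apart. Bckdhb (705 to 1170), Ivd (204 to 494) and Mccc1 (405 to 738) were called in no comparison. Mccc2, in a limma fit without its missing value on ethanol WT B, was not called either: KO minus WT was -0.35 ± 0.16 (0.14) untreated and, against a single ethanol WT array, -0.55 ± 0.20 (0.073) with ethanol. A dim Mccc2 probe set (1428021_at) was higher in KO with ethanol by 1.02 (0.029). The 5 calls of Bckdha, Bckdk and Aldh6a1 kept their side of the threshold without each array in turn.

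The genotype comparisons without and with ethanol use different arrays, and they can be read side by side. Lower in KO in both were 9 members: Cps1, Asl, Slc25a15, Hgd, Agxt, Gldc, Psph, Prodh and Bckdk. That is 9 of the 18 lower members without ethanol and 9 of the 10 with it. Got1 and Tdo2 were higher in both, 2 of 5 in each comparison. The share of all probe sets called the same way in both comparisons was not computed, so these counts have no background beside them. Arg1, Tat, Fah, Got2, Haao, Shmt2, Phgdh and Bckdha were by their brightest probe set called lower without ethanol alone (Phgdh was lower in both by its other 3), but a call in one comparison and not in the other does not show that the difference changed. Among arrays with a spike-in bioC to bioB ratio above 2, which were both untreated KO arrays and the B arrays of the other groups, the median member difference was -0.38 untreated and -0.17 with ethanol; among the A arrays below that ratio it was -0.06 with ethanol. Over all members, the calls without ethanol were 17 to 27 with each array left out in turn, and with ethanol 10 to 18.

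**Figure D3:**
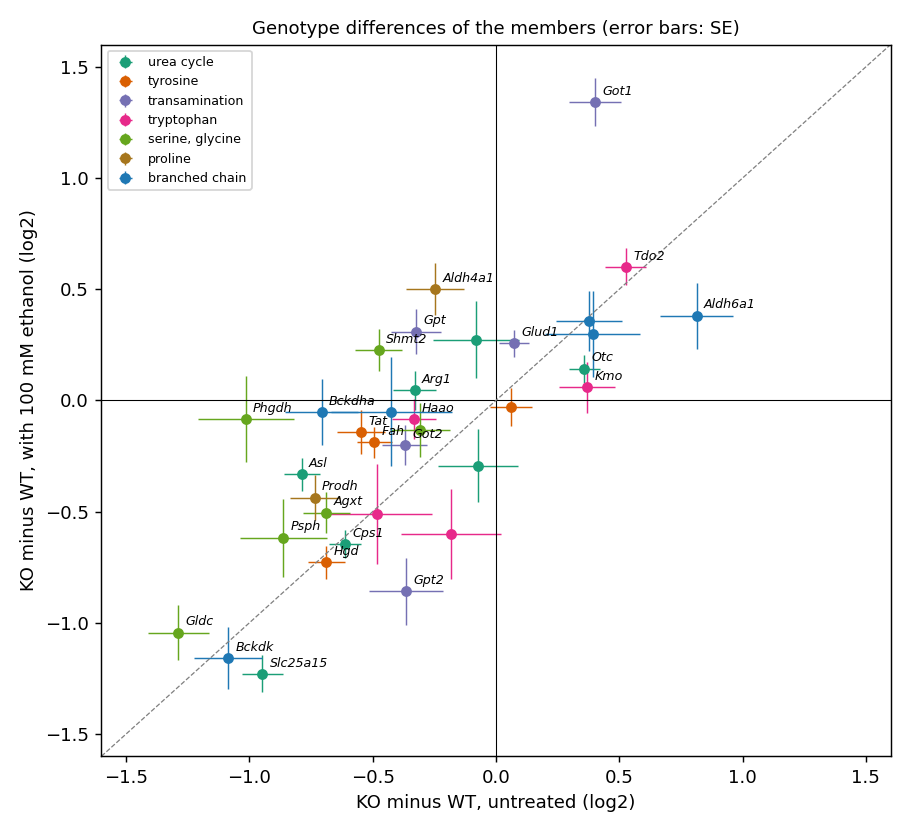
KO minus WT difference of each tested member without ethanol (x axis) and with 100 mM ethanol (y axis), in log2 units with SE bars and coloured by route; names mark members called in either comparison and the dashed line is equality. Slc25a15, Bckdk and Gldc lie at the lower left, and Got1 lies highest, at 0.40 and 1.34.

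Since several members were lower in KO in both comparisons and the study concerns Sp1, which binds GC-rich promoter boxes, the promoter windows of the members were read for short motifs (RefSeq, GRCm38.p6, from 250 bases before to 50 after a start). A window was found for 33 of the 39 members, 36 windows in all, since some genes have more than 1 start. The GC box GGGCGG, on either strand, was present in 15 of 36 member windows (41.7%) and in 35.7% of all 32851 windows of the same length. TATAAA was present in 13.9% of member windows and 13.6% of all, and the cyclic AMP motif TGACGTCA in 0.0% and 1.79%. For 7 of the 9 members lower in KO in both comparisons a window was found, and 4 of their 8 windows held a GC box. The 4 are both starts of Slc25a15 and the windows of Gldc and Psph, while those of Agxt, Bckdk, Hgd and Prodh had none. With 8 windows, this count does not stand clearly apart from the 35.7% of all windows. For Got1 and Tdo2 a GC box was present in 0 of 2 windows. These are matches of letters, not measured binding sites. The 250 bases before the start are printed for 4 members lower in KO in both comparisons, 3 with the GC box (Slc25a15 at one of its starts, Gldc, Psph) and 1 without (Hgd), and for the 2 members higher in both (Got1, Tdo2). Capitals mark a GC box in Slc25a15, Gldc and Psph and TATAAA in Hgd and Tdo2, on either strand, and Got1 holds none of the 3 motifs.
Slc25a15 (chr8:22398278-22398527, minus strand): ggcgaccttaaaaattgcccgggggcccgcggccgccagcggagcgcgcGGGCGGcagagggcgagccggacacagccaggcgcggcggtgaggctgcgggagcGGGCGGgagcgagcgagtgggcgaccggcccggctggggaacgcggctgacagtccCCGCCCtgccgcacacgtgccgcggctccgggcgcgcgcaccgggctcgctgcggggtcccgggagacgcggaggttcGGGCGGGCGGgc
Gldc (chr19:30175442-30175691, minus strand): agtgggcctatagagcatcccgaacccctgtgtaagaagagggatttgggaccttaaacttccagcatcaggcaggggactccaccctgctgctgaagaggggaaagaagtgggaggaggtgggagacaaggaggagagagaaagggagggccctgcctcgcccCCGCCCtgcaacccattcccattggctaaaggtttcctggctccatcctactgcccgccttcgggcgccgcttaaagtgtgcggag
Psph (chr5:129787254-129787503, minus strand): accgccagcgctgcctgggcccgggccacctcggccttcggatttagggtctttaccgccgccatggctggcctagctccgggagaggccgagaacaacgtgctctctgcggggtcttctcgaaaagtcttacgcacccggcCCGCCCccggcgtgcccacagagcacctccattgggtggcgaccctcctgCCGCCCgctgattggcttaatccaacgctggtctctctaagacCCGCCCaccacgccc
Hgd (chr16:37579903-37580152, plus strand): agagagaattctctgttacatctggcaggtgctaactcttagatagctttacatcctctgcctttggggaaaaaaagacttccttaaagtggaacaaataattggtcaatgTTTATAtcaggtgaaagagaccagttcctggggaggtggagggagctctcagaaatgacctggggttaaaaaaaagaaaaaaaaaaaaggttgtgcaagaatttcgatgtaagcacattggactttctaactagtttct
Got1 (chr19:43524606-43524855, minus strand): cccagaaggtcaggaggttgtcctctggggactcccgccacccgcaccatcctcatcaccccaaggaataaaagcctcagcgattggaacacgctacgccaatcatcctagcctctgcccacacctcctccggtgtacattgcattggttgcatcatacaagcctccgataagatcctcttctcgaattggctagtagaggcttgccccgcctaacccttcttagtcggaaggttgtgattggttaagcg
Tdo2 (chr3:81975729-81975978, minus strand): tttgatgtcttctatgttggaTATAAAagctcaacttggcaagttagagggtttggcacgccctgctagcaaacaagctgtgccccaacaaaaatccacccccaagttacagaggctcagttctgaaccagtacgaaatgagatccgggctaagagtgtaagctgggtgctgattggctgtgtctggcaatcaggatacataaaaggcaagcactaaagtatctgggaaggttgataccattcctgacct

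Ethanol was followed by 4 member calls in WT and 20 in KO. The comparison of KO with WT without ethanol and that of ethanol in KO share the 2 untreated KO arrays, both dim before scaling, so a low value on them lowers the first difference and raises the second. In WT the called members were Slc25a15, Hgd and Agxt, which rose, and Glud1, which fell. The same 3 rose in KO, together with Cps1, Asl, Arg1, Nags, Tat, Fah, Got1, Got2, Gpt, Haao, Shmt2, Phgdh, Prodh, Aldh4a1 and Bckdha, while Otc and Afmid fell. Of the 35 tested members 27 lay above 0 in WT and 29 in KO. Among arrays with a spike-in ratio above 2 the median ethanol difference was 0.15 in WT and 0.37 in KO, and among the others 0.13 in WT. The count in WT was 1 without any 1 of the 4 WT arrays, 2 without either untreated KO array and 10 without either ethanol KO array. In KO the count was 9 when array A of the untreated KO cells was left out, 12 when array B was, and 18 to 23 for the others.

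**Figure D4:**
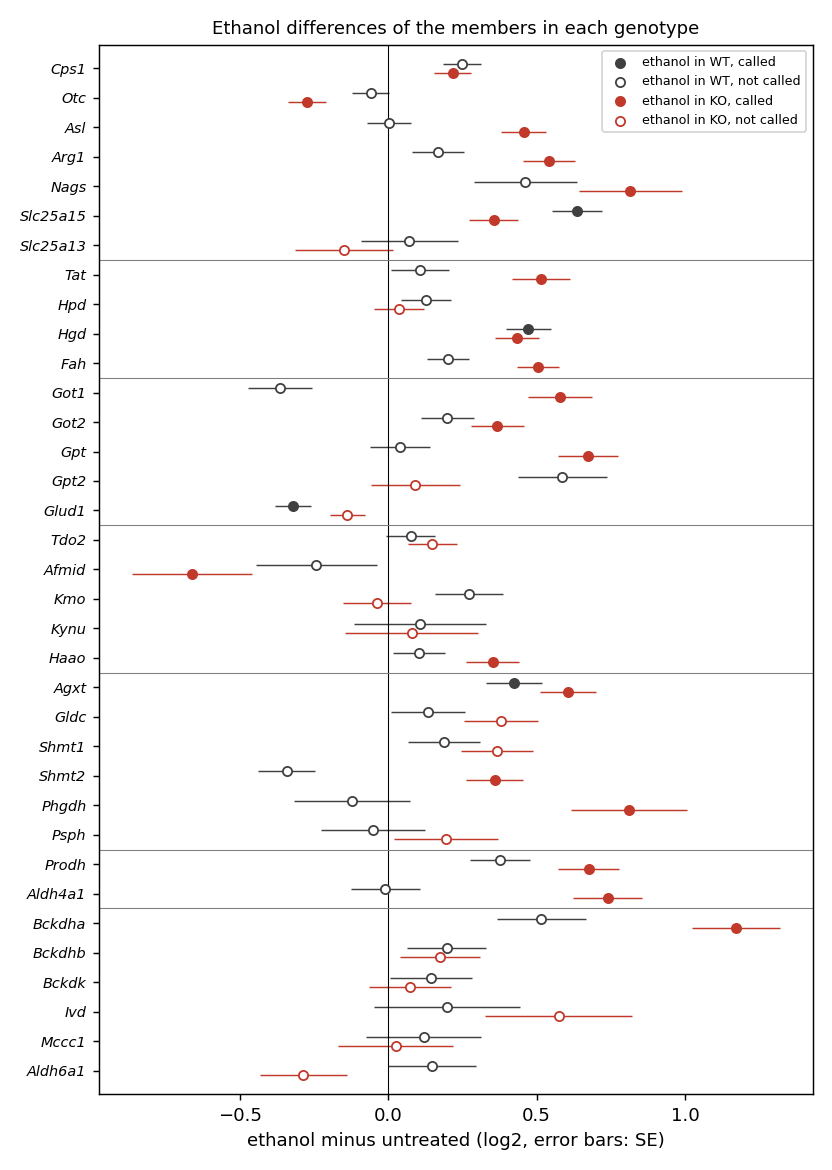
Ethanol minus untreated difference of each tested member in WT (black) and KO (red), in log2 units with SE bars; filled points are called and open points are not. The KO points of Bckdha (1.17) and Nags (0.82) lie farthest right, and Got1 and Shmt2 lie on opposite sides of 0 in WT and KO.

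The difference between the ethanol effects was tested directly as an interaction, and 5 members passed, each with the larger value in KO. Got1 differed by 0.94 ± 0.15 (adjusted p = 0.01), Aldh4a1 by 0.75 ± 0.17 (0.034), Shmt2 by 0.70 ± 0.13 (0.019), Gpt by 0.63 ± 0.14 (0.037) and Asl by 0.45 ± 0.11 (0.04). For the other members called in one genotype alone, the brightest probe set did not show a difference between genotypes. Phgdh gave 0.93 ± 0.28 (0.087), Bckdha 0.65 ± 0.21 (0.11) and Arg1 0.38 ± 0.12 (0.12). Got2 gave 0.17 ± 0.13 (0.47) by its brightest probe set. Its second probe set (1417716_at) passed the interaction test with 1.59 ± 0.16 (0.0018). The number of interaction calls was 0 by limma without either untreated KO array (8 and 11 members at an unadjusted p under 0.05). It was 1 without untreated WT A, untreated WT B or ethanol WT A, 2 without ethanol WT B, 3 without ethanol KO A and 10 without ethanol KO B, so none of the 5 calls held without every single array. The 3′ to 5′ ratio of the pyruvate carboxylase control moved across the same groups, at 26.7 and 44.55 in ethanol WT against 4.909 and 5.448 in ethanol KO, and its part in these differences was not tested.

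Neighbouring genes of the same routes, a list of 57 enzymes and transporters of which 46 were tested, were read in the same fit. In untreated cells 7 were higher and 12 lower in KO (median -0.08), against 15.3% and 16.9% of all probe sets. With ethanol 8 were higher and 9 lower (median -0.06), against 14.0% and 15.1%. Of these counts those with ethanol and the higher ones without it are near the background. The arginine transporter Slc7a2 had the largest difference, with 236 and 172 in WT cells and 232 and 210 in WT with ethanol, then 1490 and 1440 in KO cells and 736 and 569 in KO with ethanol. It was higher in KO by 2.77 ± 0.16 untreated (adjusted p = 4.6e-06) and by 1.48 ± 0.16 with ethanol (0.00018), and fell with ethanol in KO, a difference of -1.16 ± 0.16 (0.0017). Other untreated differences with the smallest adjusted p were -1.20 ± 0.09 for asparagine synthetase Asns (1.4e-05), -1.53 ± 0.12 for Qprt, which leads from tryptophan to NAD (2.2e-05), 1.06 ± 0.09 for the neutral amino acid transporter Slc38a2 (3.3e-05), -0.77 ± 0.09 for the glyoxylate reductase Grhpr (0.00023) and -0.63 ± 0.08 for the glutamine transporter Slc38a3 (0.00032). With ethanol, KO minus WT was 0.83 ± 0.08 for Gstz1 of the tyrosine route (6.7e-05), -0.76 ± 0.09 for Asns (0.0002), 0.78 ± 0.09 for Slc38a2 (0.00021), -0.96 ± 0.12 for Qprt (0.00033) and 0.91 ± 0.11 for ornithine aminotransferase Oat (0.00037).

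In the same list ethanol in WT gave 0 higher and 1 lower gene, Gstz1 at -0.40 ± 0.08 (adjusted p = 0.017), against 1.67% and 3.91% of all probe sets, and in KO 11 higher and 3 lower, against 11.4% and 10.8%. All but the 11 are near or below the background. Slc38a3 in KO rose most clearly, from 1420 and 1410 to 3010 and 2760, a difference of 1.02 ± 0.08 (0.00021) beside 0.20 ± 0.08 (0.19) in WT. The other differences in KO were 0.79 ± 0.12 for Qprt (0.0021), 0.56 ± 0.09 for agmatinase Agmat (0.0031), 0.62 ± 0.11 for Slc3a2, the heavy chain of amino acid exchangers (0.0041), and -0.51 ± 0.09 for Dld, a subunit shared by several dehydrogenase complexes (0.0048). A second Qprt probe set (1418836_at), nearly as bright, gave 0.34 ± 0.15 (0.13) for ethanol in KO and was not called. The interaction was called for Slc38a3 (0.82 ± 0.11, 0.0051), Slc3a2 (0.63 ± 0.15, 0.045) and, in the other direction, Slc7a2 (-1.28 ± 0.23, 0.015).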

How the data were processed

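Total RNA of 8 hepatocyte samples was labelled with biotin by one-cycle in vitro transcription and read on 1-colour arrays, per the labels' protocols. The authors deposited linear intensities for 45101 probe sets, 64 of them controls; how they were summarised and scaled, and on which build, is not given in the sources used here. On ethanol WT B 5410 values (12.0%) were unusable, 5403 of them exact zeros, so 39627 complete probe sets were kept. Intensities were quantile normalised, an offset of 16 was added before log2, and the brighter 50% of probe sets (mean log2 of at least 5.4) were fitted with limma 3.58.1 in R 4.3.3: all 8 arrays, 4 group means, an intensity trend in the variance prior, 4 residual and 5.43 prior degrees of freedom. P-values were adjusted by Benjamini-Hochberg within each of 5 contrasts. The fit was tested on simulated data with 66 or 67 of 19814 probe sets changed at each size. Across the contrasts, log2 changes of 0.5 were called in 5.97% to 14.9% of cases. The shares were 29.9% to 49.3% for changes of 1 and 69.7% to 84.8% for changes of 2. Far more probe sets were called in these data, so these shares need not hold here. A member that was not called may still differ. Depth is not defined for arrays; 2 arrays per group limit the precision. Of all probe sets, 34958 have 1 gene symbol, 932 several and 9211 none in the platform table.

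The 24 called members with the largest differences, of 28 called in any contrast, are given array by array, the other 4 and the members not called by ranges; up to 6 called genes with the smallest adjusted p per contrast are named from the neighbouring list. Members and lists were chosen with earlier results of these data known. Alternatives changed the scaling, offset, filter, variance prior, probe set, spike-in class, replicate block and arrays used.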

Additional observations from a re-analysis of the deposited data

Results flagged for a closer look

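By the brightest probe set of each gene, the effect of ethanol differed between KO and WT in the interaction test for 5 members. Got2 passed only by its second probe set (1417716_at), with 1.594. The difference of the log2 differences was 0.942 for Got1, 0.748 for Aldh4a1, 0.701 for Shmt2, 0.631 for Gpt and 0.453 for Asl, each larger in KO. No group had enough arrays for a check of single outlying arrays.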

How the results depend on the processing

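The calls of the members were 23, 15, 4, 20 and 5 in the order genotype without ethanol, genotype with ethanol, ethanol in WT, ethanol in KO, and interaction. Of 1377 values of single called members under the alternatives, 1140 kept their direction and call, 232 kept the direction without the call and 5 reversed. The reversed values come from the second brightest probe set and were not called: Slc25a15 with 0.503 in KO against WT with ethanol and -0.377 for ethanol in WT, Gpt with -0.445 and Tdo2 with -0.11 in KO against WT with ethanol, and Afmid with 0.265 for ethanol in KO. Of 13 members with such a probe set, 3 were called in untreated cells (7 with the brightest). For ethanol in WT 4 were called (2), and for ethanol in KO 2 (7). The counts in brackets leave out Mccc2, whose brightest probe set lacked a value and was not tested.

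Counting the B ethanol arrays as untreated gave 14, 4, 0, 0 and 0 calls by limma, and leaving them out gave 10 interaction calls. Without a variance trend there was 1 call for ethanol in WT, 12 for ethanol in KO and 0 for the interaction (8 at an unadjusted p under 0.05). With the compared groups alone ethanol in WT gave 10 and ethanol in KO 13. For ethanol in WT the top 30% filter gave 7, the spike-in class as a term 7 and leaving out the dim arrays 10; for the interaction trimmed-mean scaling gave 3 and no filter 2. With each array left out in turn the counts ran from 17 to 27, 10 to 18, 1 to 10, 9 to 23 and 0 to 10, and of 67 calls 35 held without every array. Under trimmed-mean scaling the median over all probe sets for KO against WT with ethanol went from -0.047 to 0.065 and changed the split of higher and lower calls from 5 and 10 to 3 and 10 there, and from 3 and 1 to 3 and 0 for ethanol in WT. Letters A and B were not taken as pairs, since not every correlation of same-letter deviations was above 0.1: they were 0.204 to 0.302 among untreated WT, ethanol WT and ethanol KO, whose A and B arrays also differ in spike-in class, and 0.0218 to 0.0308 with untreated KO. The replicate block (letter as a term) gave 24, 18, 5, 20 and 6 calls. The cause of these changes was not tested. The fit with the compared groups alone was not run for the interaction.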
